A study of Homo sapiens with 4 samples.

Results

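Histone genes were followed in human cardiomyocytes made by 2 routes. Members were all symbols of the deposited gene table that begin with HIST1H to HIST4H, H2AF, H3F3 or H1F, which gave 90 of 23615 symbols. Of these, 70 were cluster histone genes, 15 were variant histone genes, 4 were annotated by RefSeq as pseudogenes (H3F3AP4, HIST1H2APS1, HIST2H2BA and HIST2H2BC) and 1, H1FX-AS1, was an antisense RNA gene. Cluster and variant genes are described apart, and the pseudogenes and the antisense RNA are in no count of histone genes.

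Both groups were differentiated from RUES2, a human embryonic stem cell line, as monolayers under the A100/B5 condition (activin A at 100 ng/ml, then BMP4 at 5 ng/ml), with 1 µM of the Wnt/β-catenin agonist CHIR-99021 in the day 1 medium. For ECsXAV, 200 ng/ml VEGF was given from day 2 to make hemogenic endothelial cells. That medium was Stempro34 and also held bFGF, a further dose of BMP4, monothioglycerol and ascorbic acid. The cells then received 2 µM of the tankyrase inhibitor XAV-939 between days 5 and 7, in RPMI medium with B27 supplement. For CPC, cardiac progenitor cells were made in RPMI medium with B27 supplement and without VEGF, and the study's schematic draws XAV at 1 µM from day 3. Poly-A RNA of unsorted cells was sequenced on day 14 from 2 biological replicates per group, and the comparison addresses how alike the RNA of cardiomyocytes from the 2 origins was.

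Histones package DNA into nucleosomes, with pairs of H2A, H2B, H3 and H4 in a core and H1 on the linker. Replication-dependent histone genes lie in clusters, are transcribed in S phase, and give most of their mRNA without a poly-A tail: the transcript ends just after a conserved stem-loop that is bound by SLBP. Variant genes lie outside the clusters, mostly hold introns or a poly-A signal, give tailed mRNA through the whole cell cycle, and supply nucleosomes in cells that no longer divide. In cardiac muscle, cells leave the cell cycle as they mature. Selection for poly-A tails favours the mRNA of variant genes and of those cluster genes that gain a tail, and how much untailed mRNA stayed in these libraries was not tested.

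The 3′ ends are shown first because poly-A selection acts on them. Of the 70 cluster genes, 67 had a coding model in GENCODE 44 lifted to GRCh37, and HIST1H2BF, HIST1H2BG and HIST1H4F are only named. All 67 held the histone stem-loop within 200 bases after the coding sequence, starting 23 to 68 bases past the stop codon. Among the 15 variant genes, H2AFX alone held one there. The 16-base loop occurred in 10 forms, and the commonest stood in 39 genes. Below are the loops of the 6 cluster genes with the highest level, of H2AFX and of HIST1H4C, an H4 gene listed at 0 in all 4 libraries. Each is written 5′ to 3′ on the strand of the gene with the stem-loop in capitals:
HIST1H1C: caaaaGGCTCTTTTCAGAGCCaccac
HIST2H2BE: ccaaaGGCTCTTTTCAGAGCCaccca
HIST1H2BD: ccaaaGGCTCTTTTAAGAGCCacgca
HIST1H2BK: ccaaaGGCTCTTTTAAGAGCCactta
HIST1H2AC: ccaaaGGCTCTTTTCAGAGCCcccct
HIST3H2A: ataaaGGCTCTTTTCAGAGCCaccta
H2AFX: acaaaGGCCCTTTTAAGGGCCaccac
HIST1H4C: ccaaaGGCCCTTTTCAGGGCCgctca
On GRCh37 these lie at chr6:26055967-26055992 (HIST1H1C, minus strand), chr1:149857733-149857758 (HIST2H2BE, minus), chr6:26158810-26158835 (HIST1H2BD, plus), chr6:27114140-27114165 (HIST1H2BK, minus), chr6:26124892-26124917 (HIST1H2AC, plus), chr1:228645065-228645090 (HIST3H2A, minus), chr11:118965603-118965628 (H2AFX, minus) and chr6:26104540-26104565 (HIST1H4C, plus), all just after the stop codon of the gene. The search accepted only loops of the conserved form, so every loop shown follows it, that of HIST1H4C, listed at 0, among them.

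Some of these genes also have an annotated longer transcript that runs past the loop to a poly-A signal. This signal was searched as AATAAA or ATTAAA, on the strand of the gene, in the last 40 bases of complete coding transcripts. It was found for 11 of the 67 cluster genes (16.4%) and 14 of the 15 variant genes (93.3%), beside 77.1% of 19454 canonical coding transcripts of all genes. A member counted if any of its complete coding transcripts had the signal, while the share over all genes used canonical transcripts only. The shares are thus not of the same measure. In 10 of the 11 it ended a 3′ UTR of over 100 bases, and in HIST1H4J, whose 3′ UTR has 47 bases, it stood before the loop. The signals of HIST3H2A, HIST2H2BE, HIST1H2BD and H2AFX are shown in capitals because each of these genes has both kinds of end:
HIST3H2A: tttatctgatATTAAAagtatttatg
HIST2H2BE: tattgttattAATAAAgttaccaatt
HIST1H2BD: agttataattAATAAAatctgcggag
H2AFX: gactaattttATTAAAggattgtttt
These windows lie at chr1:228644688-228644713, chr1:149856017-149856042, chr6:26171543-26171568 and chr11:118964593-118964618 on GRCh37, and each signal ends 18 or 19 bases before the annotated transcript end. The 3′ UTRs that end there have 449, 1804, 387 and 1092 bases in turn. A match is a description of the letters and does not show which end the sequenced mRNA had.

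The deposited values are FPKM, a fragment number scaled to transcript length and library size. Read counts were not used here, so depth is known only in relation: compared with ECsXAV replicate 1, the other libraries had 50.1% (ECsXAV replicate 2), 86.9% (CPC replicate 1) and 79.8% (CPC replicate 2). For low cluster genes, read numbers were estimated as the smallest whole numbers that match the values at these relative depths. By this estimate 1 read was worth a median of 0.187 to 0.362 FPKM across the libraries. True read numbers may be larger, so values near or below this rest on single or few reads. Marker lists were summed in FPKM for each library. Calls follow the criterion given below, which 2.15% of all tested genes met. Over all tested genes, 1.44% were called higher in ECsXAV and 0.71% higher in CPC. Cardiomyocyte markers had 12365 to 13075 in the 4 libraries, and 1 of 8 was called: MYH6, a myosin heavy chain of heart muscle, with 855 and 857 FPKM in ECsXAV and 2070 and 1901 in CPC. Smooth muscle and fibroblast markers had 389 and 395 in ECsXAV and 178 and 199 in CPC, with 4 of 6 tested genes called higher in ECsXAV. In that list MYH11, too low to test, was higher in CPC (0.0844 and 0.154 FPKM against 0.351 and 0.433). ACTA2 overlapped. Hepatic and endoderm markers had 43.4 and 35.7 against 16.6 and 18.8, with 3 of 4 tested genes called higher in ECsXAV. Most of the CPC sum was APOA1, which had 20.6 and 17.9 FPKM in ECsXAV and 15.9 and 17.8 in CPC and was not called. Blood markers had 3.61 and 6.07 against 1.65 and 0.930, with PTPRC at 0 throughout and neither of 2 tested genes called. Among them HBE1, an embryonic globin gene, had 2.13 and 4.55 FPKM against 0.338 and 0.184. Endothelial markers had 10.6 to 13.1, mostly from KDR, which had 7.06 to 10.8 with overlapping groups. CDH5 was higher in both ECsXAV libraries (1.19 and 1.49 against 0.875 and 0.649), as were TEK, ESAM and VWF at lower levels. PECAM1, TIE1 and CLDN5 overlapped, and neither of 2 tested endothelial genes was called. Skeletal muscle markers had 21.9 to 33.4, mostly from ACTA1 at 19.7 to 29.6, with MYF5 and PAX7 at 0. Pluripotent markers had 1.95 to 2.98 with NANOG at 0. In unsorted bulk cells, fewer cells of a type and less RNA per cell cannot be told apart, and the part of these other cells in any histone value below was not tested.

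As the plot of level against 3′ UTR shows, the cluster genes fell far apart in level. Of the 70, 21 were listed at 0 in every library, 35 had a mean above 0 and below 1 FPKM, with a median of 0.148, and 14 had a mean of at least 1. Summed over all 70, the level was 146 and 151 FPKM in the ECsXAV libraries and 137 and 155 in the CPC libraries, so the groups overlapped. The 6 leading genes held 78.2% to 84.7% of that sum in each library. Of the 13 cluster genes with an annotated 3′ UTR of over 100 bases, 7 reached a mean of 1 FPKM and 1 was at 0 throughout. Of the 54 with at most 100 bases, 6 reached it and 20 were at 0. HIST1H1C and HIST1H2BK, with 3′ UTRs of 50 and 60 bases in the GENCODE models, were the exceptions with a high level. The paper names UCSC gene annotations for its FPKM, so level and 3′ UTR may come from different gene models. Whether these genes have longer ends in the UCSC annotations was not tested.

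**Figure D1:**
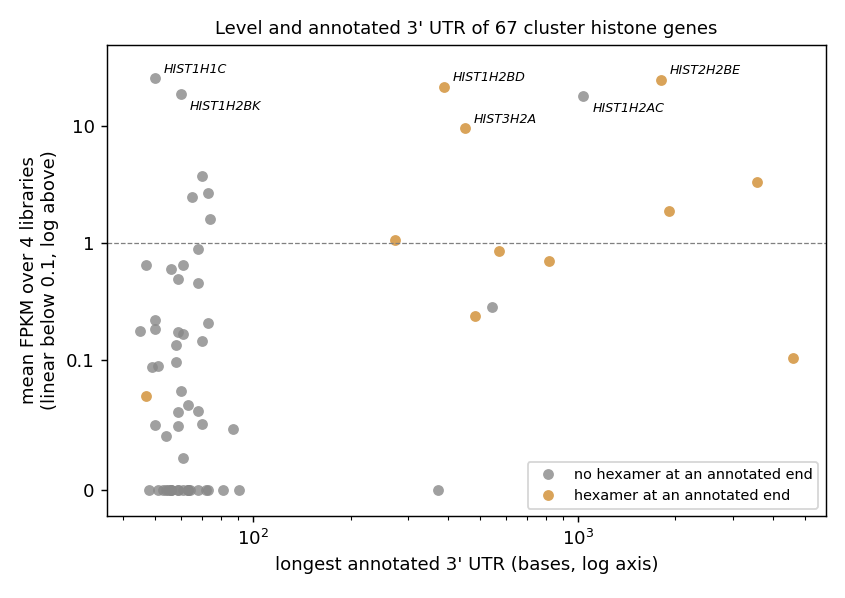
Mean FPKM over the 4 libraries (vertical axis, linear below 0.1 and logarithmic above) against the longest annotated 3′ UTR in bases (horizontal, logarithmic) for the 67 cluster genes with a GENCODE model, coloured by whether an annotated end holds AATAAA or ATTAAA. Of the 6 genes above 9 FPKM, 4 have a GENCODE 3′ UTR of over 100 bases, while most genes with a short one sit near 0. The FPKM may rest on other gene models.

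The histone types differed in their summed cluster FPKM. Cluster H2B genes summed to 72.5, 76.7, 69.4 and 82.2 FPKM (ECsXAV replicates 1 and 2, then CPC replicates 1 and 2), and this order of the libraries is kept below. Cluster H2A genes summed to 43.2, 43.0, 32.4 and 29.9 FPKM, with both ECsXAV libraries above both CPC libraries. Most of this gap lay in HIST3H2A (mean 12.9 FPKM in ECsXAV and 6.42 in CPC) and HIST1H2AC (20.6 and 15.7). Of the 5 tested cluster H2A genes, 4 had a negative log2 difference (higher in ECsXAV) and 1 a positive one. The only cluster H1 gene tested was HIST1H1C, and H1 summed to 19.0, 22.7, 24.2 and 38.2 FPKM. The 14 cluster H3 genes reached no more than 5.73 FPKM together and the 15 cluster H4 genes no more than 7.29. H2A and H2B genes had the larger part of the summed cluster FPKM in every library.

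Values of 0 were not read as absence. HIST2H2AA3 and HIST2H2AA4, HIST2H3A and HIST2H3C, and HIST2H4A and HIST2H4B are pairs with identical coding sequence, and all 6 were listed at 0. HIST1H4J and HIST1H4K, also identical in coding sequence, had means of 0.0726 and 0.177 FPKM. Reads from such pairs align equally well to both copies, and the sources used here do not state how they were handled for the FPKM. HIST1H4C was listed at 0 without any other place of at least 98% identity over 100 bases in GRCh37.

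Many cluster genes stand head to head with a neighbour. Among the 67 cluster genes with a gene model, 12 such pairs on opposite strands started within 1000 bases of each other, 169 to 978 bases apart. HIST1H2BF, HIST1H2BG and HIST1H4F had no model and could not enter. HIST1H2BO was counted both with HIST1H2AM and with HIST1H3J. Starts were the outer ends of gene spans. The HIST1H3J span (chr6:27858093-27860884, minus strand) runs from its stem-loop, at 27858093-27858118, into HIST1H2AM. Its coding sequence, of 408 bases, lies next to the loop. The HIST1H3J pair, among the 12 and with neither gene tested, thus rests on the far end of that span. In 2 pairs both genes were tested, in 4 only 1 was, and in 6 neither was. HIST3H2A had a mean of 9.68 FPKM, while HIST3H2BB, which starts 229 bases away on the other strand, had 0.104. HIST2H2BE (25.2 FPKM) and HIST2H2AC (0.223) differed as widely, as did HIST1H2BK (19.0) and HIST1H2AH (0.0506). HIST1H2AC and HIST1H2BC had 18.1 and 1.08 FPKM, whereas HIST1H2AK and HIST1H2BN were close, at 3.77 and 3.35. The sequence CCAAT, searched on both strands in the 250 bases before and 50 bases after the start (RefSeq, GRCh38.p14), was present in 55 of 65 cluster promoters (84.6%), in 10 of 13 variant promoters (76.9%) and in 35.7% of 27305 promoters of all genes.

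In the comparison of CPC with ECsXAV, 12398 genes with a mean of at least 1 FPKM were tested with limma on log2(FPKM + 1), and a call needed a Benjamini-Hochberg adjusted p under 0.05 and a change of over 2-fold. A negative log2 difference is higher in ECsXAV. The pseudocount of 1 draws the differences of weakly read genes towards 0. Over all tested genes 2.15% were called, 1.44% higher in ECsXAV and 0.71% higher in CPC. None of the 14 tested cluster genes and none of the 10 tested variant genes was called. At an unadjusted p under 0.05, which 18.2% of all tested genes reached, stood 3 cluster genes and 2 variant genes. An exact permutation test of 1 gene at this size cannot go below a two-sided p of 0.333, so the limma p-values rest on a spread shared across genes and measure the spread between these libraries.

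The nearest to a call was HIST3H2A, an H2A gene outside the large clusters on chromosome 1 (GRCh37 228622478 to 228645574, minus strand). It had 13.9 and 11.9 FPKM in ECsXAV and 6.70 and 6.14 FPKM in CPC. Both ECsXAV libraries were above both CPC libraries, and the mean FPKM was 2.01-fold higher. On the log2(FPKM + 1) scale the difference was -0.91 (standard error 0.13, 95% interval -1.24 to -0.57, limma adjusted p = 0.0435), which passed the p but not the 2-fold part of the criterion. The adjusted p was 0.0855 with no filter on low FPKM, 0.0508 after quantile normalization, 0.0530 with replicate number fitted as a block, 0.00655 without microRNA and small nucleolar RNA genes, and 0.147 to 0.319 with a library left out. An adjusted p under 0.05 at any fold was reached by 2.89% of all tested genes.

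Other cluster genes read higher in both ECsXAV libraries without a call. HIST2H2BE, an H2B gene on chromosome 1, had 30.1 and 27.7 FPKM in ECsXAV and 20.8 and 21.9 in CPC, a log2 difference of -0.42 (standard error 0.11, limma adjusted p = 0.136). HIST1H2AC had 19.0 and 22.2 against 16.9 and 14.4 FPKM, a log2 difference of -0.37 (limma adjusted p = 0.259). HIST1H2AE, another H2A gene, had 2.86 and 3.23 against 2.15 and 2.50 FPKM (-0.28). These groups do not overlap, which is common here: 11 of the 14 tested cluster genes had groups that did not overlap, 7 with ECsXAV above and 4 with CPC above. Over all tested genes 49.8% had such groups, 25.4% with ECsXAV above and 24.4% with CPC above.

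At a low level, 1 library could set the difference. HIST1H4H, an H4 gene, had 3.13, 3.12, 2.70 and 0.981 FPKM, and its log2 difference of -0.61 became -0.16 without CPC replicate 2 while neither value was called. HIST1H3E, the only cluster H3 gene tested, had 3.29 and 1.38 FPKM in ECsXAV and 1.99 and 0.868 in CPC. Its groups overlapped, replicate 1 was the higher library in both, and the 95% interval of its log2 difference ran from -1.40 to 0.53.

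Cluster genes with positive differences were led by HIST1H1C, which codes for the linker histone H1.2. It had 19.0 and 22.2 FPKM in ECsXAV and 24.0 and 38.0 in CPC, a log2 difference of 0.53 with an interval of -0.08 to 1.15 (limma adjusted p = 0.331). Much of this lay in CPC replicate 2, without which the difference was 0.21. HIST1H2BK had 14.0 and 18.9 against 19.2 and 24.1 FPKM (0.38), HIST1H2BG 1.85 and 1.48 against 2.35 and 2.09 (0.27), and HIST1H2BN 2.73 and 3.27 against 3.99 and 3.43 (0.23). In these 3 H2B genes both CPC libraries were above both ECsXAV libraries and no difference passed the test. The coding sequence of HIST1H2BK has 1 other place of at least 98% identity over 100 bases in the genome, so its level is less certain.

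HIST1H2BD and HIST1H2AK had overlapping groups. HIST1H2BD had 19.3 and 22.0 FPKM in ECsXAV and 19.3 and 26.9 in CPC (log2 difference 0.14), and HIST1H2AK had 4.36 and 2.79 against 4.42 and 3.50 (0.13). Both differences changed sign when 1 library was left out. Over the 14 tested cluster genes, 8 log2 differences were negative and 6 positive, with a median of -0.19, beside -0.0045 over all tested genes. The intervals of 10 of the 14 lay wholly within a 2-fold change, and those of HIST1H1C, HIST1H3E, HIST1H4H and HIST3H2A did not. As the plot of differences shows, 4 of the 5 tested cluster H2A genes lay below 0 and 4 of the 6 tested cluster H2B genes above it.

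**Figure D2:**
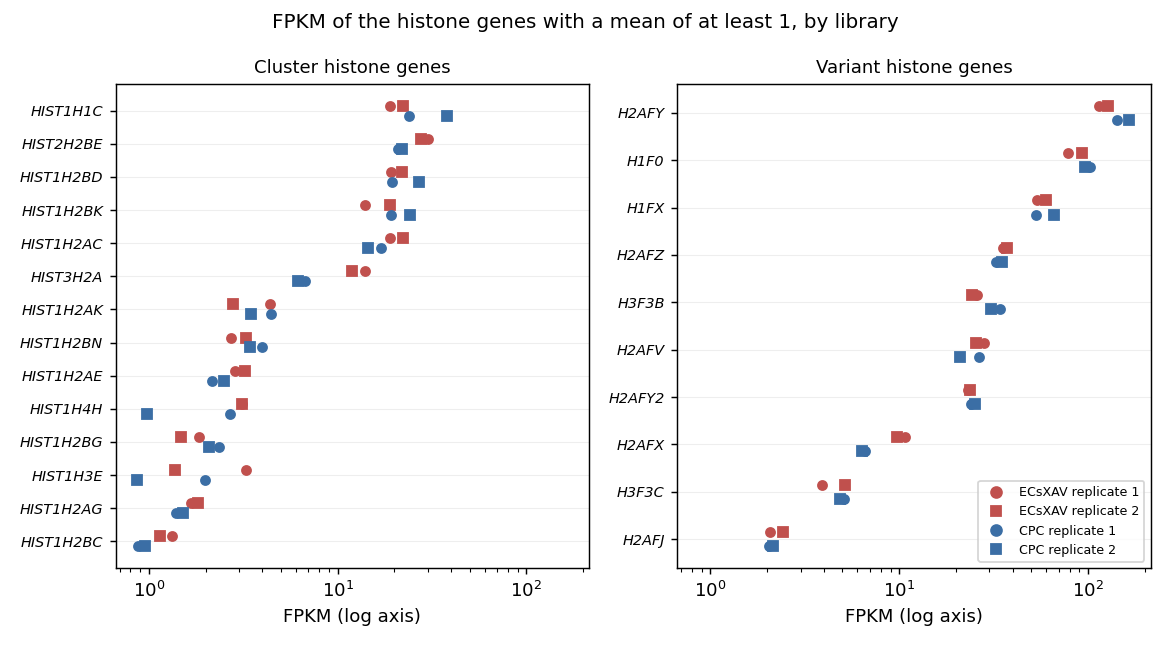
FPKM in each library (horizontal, logarithmic) of the 14 cluster and 10 variant genes with a mean of at least 1 FPKM; red is ECsXAV, blue is CPC, circles are replicate 1 and squares replicate 2. In HIST3H2A, HIST2H2BE and H2AFX the red and blue points stand apart, and in 7 of the 24 genes the groups overlap.

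**Figure D3:**
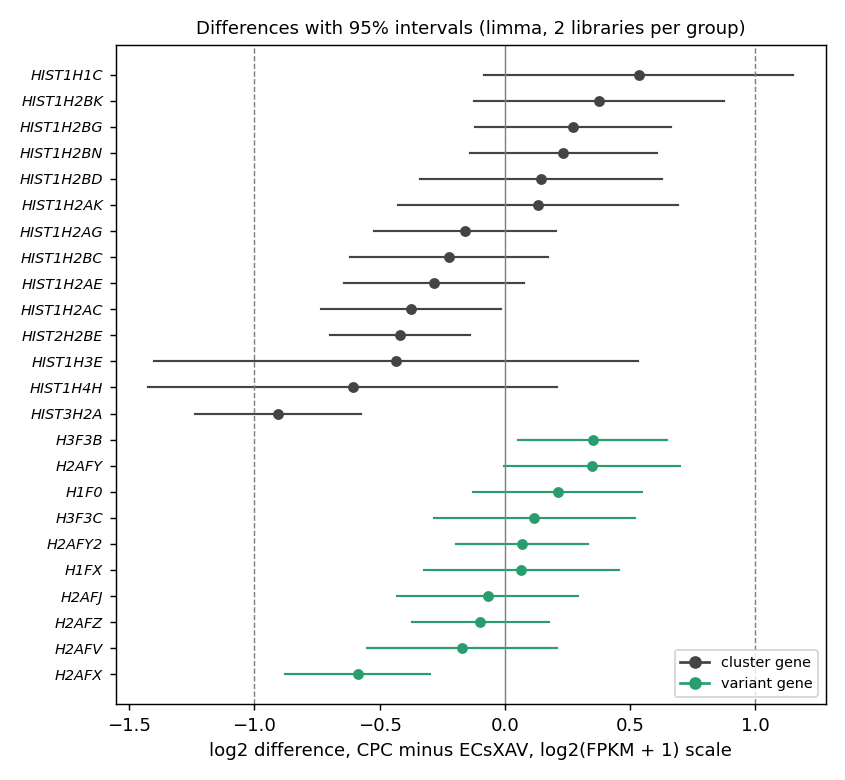
Log2 difference, CPC minus ECsXAV on the log2(FPKM + 1) scale, with the 95% interval from limma for the 24 tested histone genes; dashed lines mark a 2-fold change. All 24 points lie within the dashed lines, and HIST3H2A is nearest to one, at -0.91.

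Variant genes had a higher summed FPKM than the cluster genes in every library. Their summed level was 375 and 408 FPKM in ECsXAV and 429 and 452 in CPC, with both CPC libraries higher. Most of this gap lay in H2AFY and H1F0, whose values are given below. Of the 15, 10 were tested, H1FOO, H2AFB1 and H2AFB2 were listed at 0 throughout, and H1FNT, a testis H1 gene, reached at most 0.246 FPKM. H3F3A, whose level is uncertain (below), entered the sum at 0.00094 to 0.0019 FPKM. The median log2 difference of the 10 was 0.07, and all 10 intervals lay within a 2-fold change.

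Linker variants came among the highest. H1F0, which codes for H1.0, the linker histone that gathers in cells that stop dividing, had 78.7 and 92.5 FPKM in ECsXAV and 102 and 95.9 in CPC (log2 difference 0.21, interval -0.13 to 0.55). H1FX had 53.8 and 59.8 FPKM in ECsXAV against 53.2 and 66.4 FPKM in CPC (log2 difference 0.07), with overlapping groups. On the FPKM scale, H1F0 stood above H1FX and H1FX above HIST1H1C in every library.

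H2AFY codes for macroH2A1, an H2A with a large extra domain found on silent chromatin. By the listed FPKM, H2AFY was the highest histone gene in every library, with the level of H3F3A uncertain (below). H2AFY had 114 and 127 FPKM in ECsXAV and 143 and 165 in CPC, a log2 difference of 0.35 (interval -0.0045 to 0.70, limma adjusted p = 0.279). Both CPC libraries were higher, by a mean of 1.28-fold, and the difference was not called. Its paralogue H2AFY2 (macroH2A2) had 23.1, 23.8, 24.1 and 25.1 FPKM, a log2 difference of 0.07.

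The H2A.Z genes differed little. H2AFZ, the H2A variant of promoters and enhancers, had 35.4 and 36.99 FPKM in ECsXAV and 32.6 and 35.0 in CPC (log2 difference -0.10, interval -0.37 to 0.18), and H2AFV, the second H2A.Z gene, had 27.95 and 25.5 against 26.4 and 21.1 (-0.17, interval -0.55 to 0.21). H2AFJ stayed low at 2.06, 2.43, 2.05 and 2.14 FPKM, with overlapping groups.

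H2AFX codes for the H2A variant that is phosphorylated at DNA breaks, and it was the variant gene with the lowest p. It had 10.7 and 9.78 FPKM in ECsXAV and 6.62 and 6.35 in CPC, so the groups did not overlap and the mean was 1.58-fold higher in ECsXAV. The log2 difference was -0.59 (standard error 0.11, interval -0.88 to -0.30) and the limma adjusted p 0.0765. It is also the variant gene with the stem-loop shown above. With microRNA and small nucleolar RNA genes left out of the tested genes the adjusted p was 0.0331, at the same log2 difference, which is still under 2-fold. Of the 10 tested variant genes, 6 had groups that did not overlap, 2 with ECsXAV above and 4 with CPC above, beside the 49.8% of all genes.

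Among the H3 variants, H3F3A and H3F3B code for H3.3, which is laid down outside S phase, and H3F3C codes for H3.5. H3F3B had 25.8 and 24.4 FPKM in ECsXAV and 34.3 and 30.4 in CPC, a log2 difference of 0.35 (standard error 0.11, interval 0.05 to 0.65, limma adjusted p = 0.208), with both CPC libraries above both ECsXAV libraries. H3F3C had 3.91 and 5.16 against 5.11 and 4.83 FPKM, with overlapping groups, and 31.9% of its coding sequence has a near-identical place elsewhere. H3F3A, which codes for the same protein as H3F3B, was listed at 0.00094 to 0.0019 FPKM in all 4 libraries. Its coding sequence has 4 other places of at least 98% identity that together cover 100% of it, and the pseudogene H3F3AP4 was listed at 0.483, 1.39, 0.494 and 0.740 FPKM. Its level is therefore uncertain here, and no ratio of H3.3 to cluster H3 was made.

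Transcript values were used for members with several transcripts. In H2AFY nearly all FPKM lay in 2 of 4 transcripts, and NM_138609 held 59.8% and 67.1% in the ECsXAV libraries and 60.5% and 66.7% in the CPC libraries, with NM_004893 holding the rest. Replicate 1 gave the lower share in both groups, so the shares overlapped. In H2AFV, the leading transcript NM_201436 held 39.1%, 66.7%, 48.0% and 47.4% of the sum and NM_138635 held 33.2% to 39.1%, while NM_201517 held 26.1%, 0.089%, 18.8% and 13.5%, lowest in ECsXAV replicate 2, the shallowest library. The H2AFJ transcript NM_177925 held 35.1% and 47.6% in ECsXAV and 64.4% and 25.5% in CPC, so the 2 CPC libraries lay on either side of ECsXAV. In HIST1H2BD, NM_138720 held at least 98.9% in every library.

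**Figure D4:**
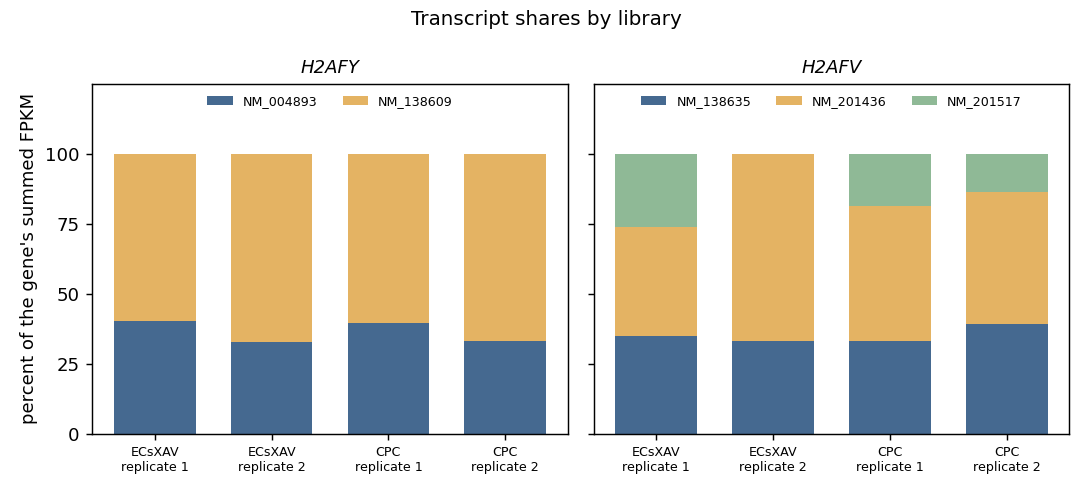
Share of each transcript in the summed FPKM of H2AFY and H2AFV (vertical, percent) in the 4 libraries; transcripts under 0.5% everywhere are left out. The 2 transcripts of H2AFY keep shares of 59.8% to 67.1% and 32.9% to 40.2%, and the smallest share in H2AFV moves between libraries of 1 group.

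Genes that make, carry and place histones were tested beside them. Of 21 genes for histone mRNA synthesis and 3′ end processing, 20 were tested and none was called, with a median log2 difference of -0.04. An unadjusted p under 0.05 in limma was reached by 3 of the 20, beside 18.2% of all tested genes. SLBP, which binds the stem-loop, had 18.8 and 18.8 FPKM in ECsXAV and 15.0 and 14.9 in CPC, a log2 difference of -0.31 (limma adjusted p = 0.200). Both ECsXAV libraries were higher. NPAT, the coactivator of cluster histone transcription, had 2.95, 3.10, 3.15 and 2.40 FPKM, with overlapping groups.

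Of 24 histone chaperone genes, 23 were tested and none was called, with a median of -0.04. In limma, 4 of the 23 had an unadjusted p under 0.05, beside 18.2% of all tested genes. CHAF1A, a subunit of the CAF-1 complex that places histones behind the replication fork, had 1.40, 1.18, 0.961 and 1.19 FPKM, and CHAF1B, another, had 1.22, 0.347, 0.275 and 0.409 and was too low to test. HIRA, which places H3.3, had 21.8 and 23.0 FPKM in ECsXAV and 20.8 and 21.3 in CPC (log2 difference -0.09, interval -0.35 to 0.18).

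Of 26 S phase genes, 19 were tested, and 1, TK1, was called higher in ECsXAV, beside 1.44% of all tested genes. TK1, the thymidine kinase of the salvage pathway, had 2.66 and 2.72 FPKM in ECsXAV and 0.821 and 0.732 in CPC, a log2 difference of -1.05 (standard error 0.14, limma adjusted p = 0.0389). The call was lost with no filter, with the block and with any library left out. With a mean FPKM of at least 5 required, TK1 was too low to be tested. Of the 19, 14 log2 differences were negative and 5 positive, with a median of -0.23, beside 6292 negative and 6106 positive over all tested genes. An unadjusted p under 0.05 in limma was reached by 5 of the 19, all higher in ECsXAV. Over all tested genes 18.2% reached it, 1287 of these 2262 higher in ECsXAV. PCNA, the sliding clamp of DNA polymerases, had 13.3 and 10.6 against 9.72 and 9.25 FPKM (-0.30, limma adjusted p = 0.372), and MCM2, a helicase subunit, had 5.01, 5.54, 4.58 and 5.07 with overlapping groups (-0.11). The plot of the lists shows the cluster histone and S phase medians below 0 and the variant median above it.

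**Figure D5:**
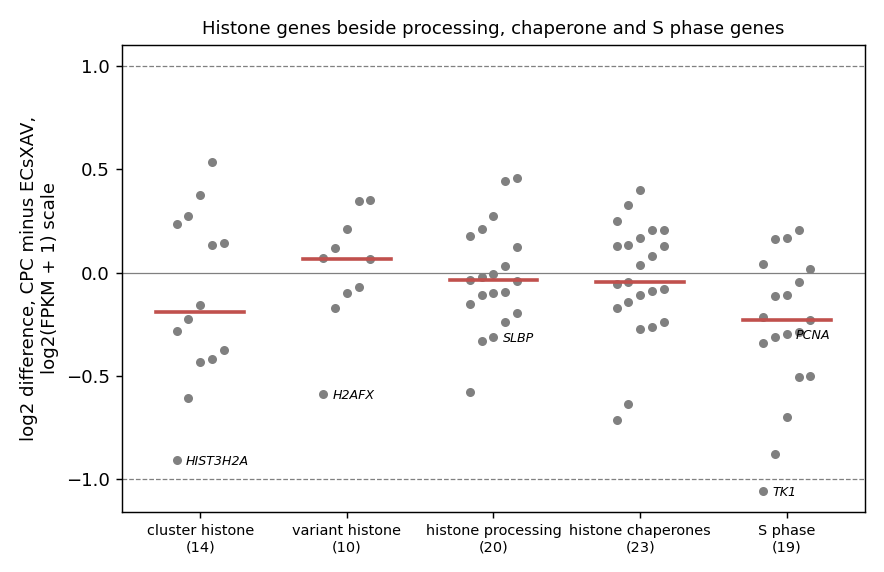
Log2 difference, CPC minus ECsXAV on the log2(FPKM + 1) scale, of each tested gene in the cluster and variant histone groups and the processing, chaperone and S phase lists (numbers tested below the names); red bars are medians and dashed lines a 2-fold change. TK1, at -1.05, is the only point beyond a dashed line.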

How the data were processed

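Poly-A RNA of 4 libraries was analysed, with 2 biological replicates in each group and groups taken from the sample labels. The authors deposited FPKM for genes and transcripts, made with Cufflinks on hg19. The labels also name TopHat 1.3.3, and how reads with several alignments entered the FPKM is not given in the sources used here (the study left them out of its separate read counts). Reads were not recounted, and total depth is unknown. Where a symbol had more than 1 locus, its row of highest mean FPKM was taken.

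FPKM were tested as log2(FPKM + 1) with limma 3.58.1 in R 4.3.3, with an intensity trend, over the 12398 genes with a mean of at least 1 and with Benjamini-Hochberg adjustment. The steps were tested on simulated data. Symbols were matched through RefSeq transcripts to GENCODE 44 on GRCh37 and to RefSeq promoters, and coding sequences were searched in the genome with blastn 2.17.0. Pairs of members on opposite strands were taken from GENCODE gene starts. Python 3.11.15 with pandas 2.3.3 was used.

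The members and gene lists (processing, chaperone, S phase and cell type markers) were chosen with earlier results of these data known. Named are variant genes with a mean of at least 1, the 10 highest cluster genes, the 5 largest differences each way among tested cluster genes, called genes of the processing, chaperone and S phase lists, and SLBP, NPAT, CHAF1A, CHAF1B, HIRA, PCNA and MCM2. Marker genes, and genes named for a value of 0, for a neighbour or for identical copies were picked after their values were seen. The fits were repeated with a pseudocount of 0.1, without the filter, with a minimum mean of 5, after quantile or median-of-ratios scaling, without the trend, with a block for replicate number, with loci summed, from the transcript table, with microRNA and small nucleolar RNA genes left out, and with each library left out in turn. Read counts, and the groups' other assays, were not analysed here.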

Additional observations from a re-analysis of the deposited data

How the results depend on the processing

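No cluster, variant, processing or chaperone gene was called under any alternative run. The single S phase call (TK1) was lost with no filter, with a replicate block, and with each library left out. With a mean FPKM of at least 5 required, TK1 was too low to be tested. The median log2 difference of the cluster genes was -0.0075 with no filter, when 49 were tested, -0.12 with a mean of at least 5, when 6 were, -0.31 with a pseudocount of 0.1, and -0.17 to -0.085 with a library left out. That of the variant genes was -0.028 to 0.11 with a library left out. Of 212 values of named members under the other alternatives, none changed sign. A filter, the trend, the block or leaving out microRNA and small nucleolar RNA genes cannot change a gene's log2 difference. Each named member had 1 locus, so summing loci used the same values. The signs under those settings were therefore fixed in advance. The transcript table gave nearly the same values as the gene table, so it was hardly a separate check. The pseudocount and the quantile and median-of-ratios scalings could move a sign. Of 88 values with a library left out, 7 changed sign, in these ranges: H1FX -0.092 to 0.22, H2AFJ -0.15 to 0.013, H3F3C -0.046 to 0.28, HIST1H2AK -0.12 to 0.38 and HIST1H2BD -0.086 to 0.37. The cause was not tested. A lone library was assumed to vary like the other group.

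The labels give both groups the replicate numbers 1 and 2 but do not say that a number marks a shared day. The differences of replicate 1 minus replicate 2 had a Pearson r of 0.035 and a Spearman rho of 0.36 between the groups over 12398 genes, and of 0.56 and 0.47 over the 24 tested histone genes. Genes are not independent replicates. With the replicate block, 176 genes were called in place of 266; the histone counts stayed at 0. Over all tested genes 20 were called with no filter, 152 with a mean of at least 5, and 50 to 118 with a library left out. Depth limits the 35 cluster genes below 1 FPKM, which rest on few reads.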
